A study of Danio rerio with 16 samples.

Results

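The 7 genes described here are the nr1d genes nr1d1, nr1d2a and nr1d2b, and the per genes per1a, per1b, per2 and per3, of the zebrafish circadian clock. They were taken by their gene identifiers from a table of 31953 genes. They were chosen because nr1d1 stood out between the paternal-cross groups, so the values of those groups are given for the 7 genes as a description, with no test. The measurement was mRNA sequencing of gonads in 16 libraries, 4 in each of 4 groups.

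The maternal-cross KO fish were homozygous for a miR-214 mutation and came from a homozygous female and a heterozygous male, and the maternal-cross HET fish were heterozygous for it and came from the same kind of cross. The paternal-cross KO and HET fish carried the same genotypes but came from a heterozygous female and a homozygous male. The mutation had been made by CRISPR-Cas9 with 2 sgRNAs and crossed to Tg(vasa:eGFP), a transgene that marks germ cells, and every group carried both, with 1 mutant copy at least. The strain label of all 16 libraries read mz 06de, and no wild-type group was used here. Each library pooled 8 or 9 gonads in the KO groups, 7 in maternal-cross HET and 9 in paternal-cross HET. The age was given as 31 days post fertilization in the library titles and 27 in another label. The labels gave no hour of collection, so a difference in hour between groups and a difference of genotype or family cannot be told apart. Nothing in the labels said that the pools of a group came from separate tanks or clutches, so the p-values measure only the spread between these pools.

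The row of the mutated gene, MIR214 (ENSDARG00000083042), was read first in every library. In the maternal cross it had 0, 0, 1 and 4 counts in KO and 3, 4, 9 and 3 counts in HET, and 1 KO library lay within the HET range. In the paternal cross it had 5, 7, 3 and 4 counts in the libraries labelled KO and 0, 2, 0 and 0 counts in the libraries labelled HET. There the groups did not overlap, and the direction went against the labels. The mean was 0.192 ± 0.0756 CPM (counts scaled to a common library size) in labelled KO and 0.0187 ± 0.0374 CPM in labelled HET (SD, n = 4 each), and an exact two-sided permutation test gave p = 0.0286, the smallest that 4 against 4 can give. In the maternal cross, KO averaged 0.0531 ± 0.0779 CPM and HET averaged 0.201 ± 0.104 CPM (SD, n = 4 each; exact two-sided permutation p = 0.0857). Poly(A) libraries do not measure the mature miRNA, the labels do not say which bases were lost, and these counts lie near the floor of 3 counts per library, so the row is a weak check in either cross. Because of it, the paternal-cross groups are called labelled KO and labelled HET, and every direction between them is that of the labels. Where the KO or HET groups of both crosses are named together, the paternal-cross group is the one with that label.

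Library totals ran from 19881375 to 30128055 counts. Germ cell and oocyte transcripts were abundant in every library: DDX4, the vasa gene, ranged from 1089 to 1362 CPM, and the oocyte list of 6 genes summed to between 4311 and 7044 CPM. Testis somatic and leukocyte markers were present as well. Most of the sum of the testis somatic list was gsdf, with group means of 153 to 330 CPM. As gsdf is a gene of Sertoli and granulosa cells, that sum does not mark testis cells alone. A change in a bulk library can come from fewer cells of a type or from less RNA per cell, and these cannot be told apart.

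In the vertebrate clock, BMAL and CLOCK proteins bind E-box elements and switch on the per and cry genes, whose proteins then block BMAL and CLOCK. The same activators switch on the nr1d genes, which encode the REV-ERB nuclear receptors. These repress genes that carry ROR elements, while the ROR receptors activate them; in mouse, Bmal1, Clock, Npas2 and Nfil3 are such genes. Most zebrafish tissues hold a clock that light can set directly, and per2 is a known light-induced gene.

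Between the groups, nr1d1 stood opposite to nfil3-5, a zebrafish relative of mouse Nfil3, and to rorcb, a ROR receptor gene. Mean nr1d1 was lowest in maternal-cross KO and labelled paternal-cross KO and highest in labelled paternal-cross HET. Mean nfil3-5 and rorcb were high in maternal-cross KO and labelled paternal-cross KO and lowest in labelled paternal-cross HET. With the paternal-cross labels turned round, the KO over HET direction of nr1d1, nfil3-5 and rorcb would be opposite in the 2 crosses. Of the other tested nfil3 copies, NFIL3 showed this at most weakly. nfil3-6 averaged 12.9 CPM in maternal-cross KO and 7.65 CPM in maternal-cross HET. In the paternal cross it went the other way from nfil3-5, with 6.36 CPM in labelled KO and 7.46 CPM in labelled HET. Pearson's r of log2 CPM with nr1d1 over the 16 libraries was -0.22 for NFIL3 and 0.02 for nfil3-6, against -0.73 for nfil3-5. The 2 nr1d2 copies and the 4 per genes did not all follow nr1d1: nr1d2a was highest in maternal-cross KO, and per1b, per2 and per3 varied little.

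nr1d1 (ENSDARG00000033160) encodes REV-ERB alpha. In maternal-cross KO it had 1.15, 1.08, 1.19 and 1.73 CPM, against 1.78, 2.13, 4.03 and 1.34 CPM in maternal-cross HET. In labelled paternal-cross KO it had 0.861, 1.15, 0.918 and 1.28 CPM, against 7.22, 5.50, 3.90 and 7.60 CPM in labelled paternal-cross HET. The maternal-cross groups overlapped through HET replicate 4 and KO replicate 4, and the labelled paternal-cross groups lay far apart. These levels rest on 22 to 42 counts in the KO libraries of both crosses and on 29 to 218 counts in the HET libraries. Means were 1.29 ± 0.301 CPM in maternal-cross KO and 2.32 ± 1.18 CPM in maternal-cross HET (SD, n = 4 each). They were 1.05 ± 0.197 CPM in labelled paternal-cross KO and 6.05 ± 1.70 CPM in labelled paternal-cross HET (SD, n = 4 each). In the maternal cross the log2 fold change of KO over HET was -0.85 with a standard error of 0.31, and the adjusted p was 0.386 by edgeR's quasi-likelihood test with Benjamini-Hochberg adjustment over 21683 genes. In the paternal cross it was -2.52 with a standard error of 0.31, in the direction of the labels.

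**Figure D1:**
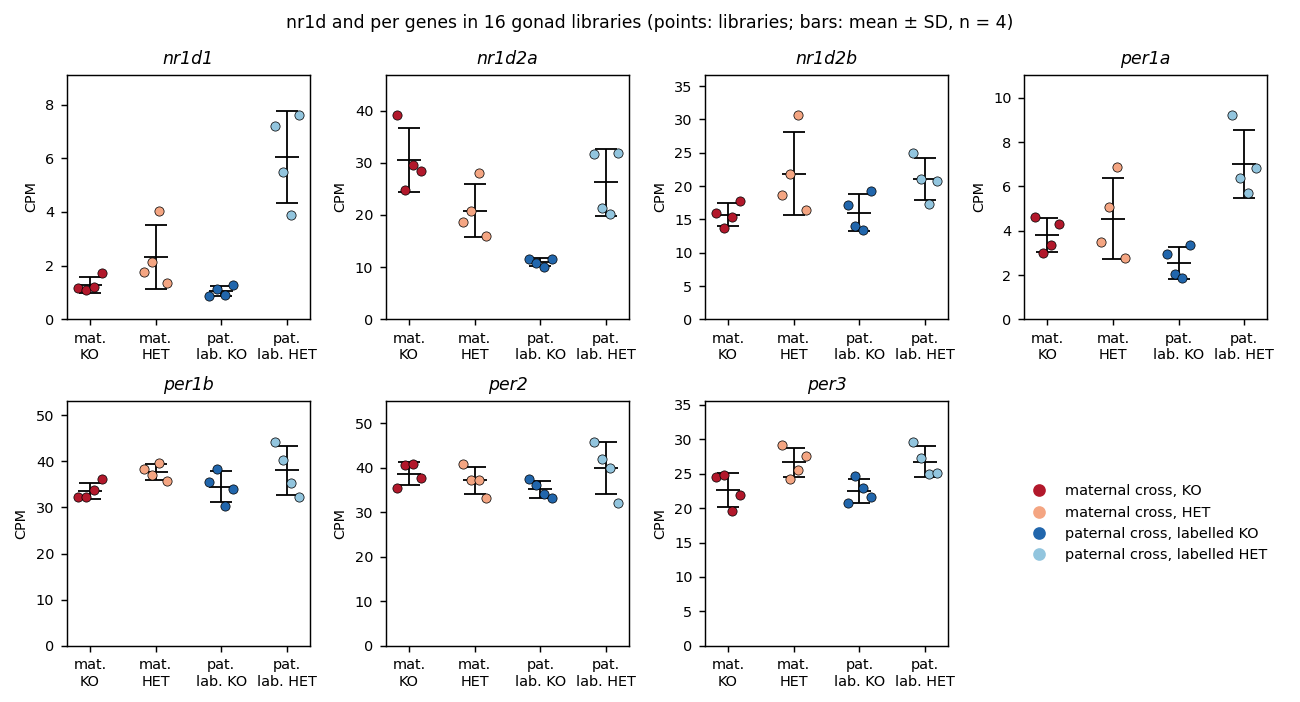
Normalised levels in CPM (y axis, linear from 0) of the 7 genes in each library, by group (x axis); points are libraries, and bars are the mean and SD of a group. The nr1d1 panel shows labelled paternal-cross HET at 3.90 to 7.60 CPM. Maternal-cross KO and labelled paternal-cross KO lie there at or below 1.73 CPM, while nr1d2a is lowest in labelled paternal-cross KO, at 10.1 to 11.6 CPM.

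nr1d2a (ENSDARG00000003820) is 1 of the 2 zebrafish copies of the gene for REV-ERB beta. In maternal-cross KO it had 39.1, 24.8, 29.7 and 28.5 CPM, against 18.7, 20.8, 28.0 and 16.0 CPM in maternal-cross HET. In labelled paternal-cross KO it had 11.6, 10.7, 10.1 and 11.6 CPM, against 31.6, 21.3, 20.2 and 31.9 CPM in labelled paternal-cross HET. The maternal-cross KO libraries were the higher ones but overlapped HET through HET replicate 3, whereas every labelled paternal-cross KO library lay below every labelled HET library. The mean of 11.0 ± 0.726 CPM in labelled paternal-cross KO stood below 30.5 ± 6.09 CPM in maternal-cross KO, 20.9 ± 5.16 CPM in maternal-cross HET and 26.2 ± 6.39 CPM in labelled paternal-cross HET (SD, n = 4 each). The log2 fold change in the maternal cross was 0.55 with a standard error of 0.18 (edgeR adjusted p = 0.314). That in the paternal cross, labelled KO over labelled HET, was -1.25 with a standard error of 0.19, so the point estimates of nr1d1 and nr1d2a had the same sign in the paternal cross and opposite signs in the maternal cross.

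nr1d2b (ENSDARG00000009594), the other REV-ERB beta copy, had 15.9, 13.7, 15.4 and 17.8 CPM in maternal-cross KO, against 18.6, 21.8, 30.6 and 16.4 CPM in maternal-cross HET. It had 17.2, 14.0, 13.4 and 19.3 CPM in labelled paternal-cross KO, against 24.9, 21.1, 17.2 and 20.7 CPM in labelled paternal-cross HET. The groups overlapped in both crosses. The log2 fold change was -0.48 in the maternal cross, with a standard error of 0.17 (edgeR adjusted p = 0.368), and -0.39 in the paternal cross by the labels, with a standard error of 0.17. nr1d2a and nr1d2b, like per1a and per1b, are copies that could share reads, and how the counting treated such reads is not given in the sources used here.

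The per genes encode the period proteins, the repressing arm of the loop. per1a (ENSDARG00000056885) had 4.60, 2.99, 3.38 and 4.29 CPM in maternal-cross KO, against 3.51, 5.06, 6.87 and 2.78 CPM in maternal-cross HET. It had 2.94, 2.04, 1.88 and 3.36 CPM in labelled paternal-cross KO, against 9.21, 6.36, 5.69 and 6.83 CPM in labelled paternal-cross HET. The maternal-cross groups were interleaved, and the labelled paternal-cross groups did not overlap. The log2 fold change was -0.26 with a standard error of 0.26 in the maternal cross (edgeR adjusted p = 0.868) and -1.45 with a standard error of 0.27 in the paternal cross by the labels.

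The other 3 per genes had steadier levels. per1b (ENSDARG00000012499) averaged 33.6 ± 1.76 CPM in maternal-cross KO, 37.7 ± 1.66 CPM in maternal-cross HET, 34.5 ± 3.34 CPM in labelled paternal-cross KO and 38.1 ± 5.28 CPM in labelled paternal-cross HET (SD, n = 4 each). per2 (ENSDARG00000034503) averaged 38.6 ± 2.56 CPM, 37.1 ± 3.10 CPM, 35.2 ± 1.93 CPM and 40.0 ± 5.80 CPM in the same order of groups (SD, n = 4 each). Both genes overlapped between KO and HET in each cross. per3 (ENSDARG00000010519) had 24.5, 24.8, 19.6 and 21.8 CPM in maternal-cross KO, against 29.2, 24.3, 25.6 and 27.5 CPM in maternal-cross HET. It had 20.7, 24.7, 22.9 and 21.6 CPM in labelled paternal-cross KO, against 29.7, 27.4, 25.0 and 25.1 CPM in labelled paternal-cross HET. The maternal-cross groups overlapped, and in the paternal cross the highest labelled KO library lay just under the lowest labelled HET library. The log2 fold changes of per1b, per2 and per3 were -0.17, 0.06 and -0.23 in the maternal cross (edgeR adjusted p = 0.655, 0.933 and 0.461) and -0.14, -0.18 and -0.25 in the paternal cross by the labels, with standard errors between 0.09 and 0.10.

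Between the highest and the lowest group mean, the ratio was 5.75 for nr1d1, 2.77 for nr1d2a, 2.75 for per1a, 1.39 for nr1d2b and between 1.13 and 1.19 for per1b, per2 and per3. In the order of group means, labelled paternal-cross HET came first for nr1d1, per1a, per1b, per2 and per3. The 2 KO groups were neighbours at the low end for nr1d1, nr1d2b, per1a, per1b and per3, and their libraries overlapped for each of these genes. For nr1d2a the KO groups stood at opposite ends of the order.

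Of the 7 genes, 0 passed the test in the maternal cross, where 0.198% of the 21683 genes tested were called at an adjusted p under 0.05. At an unadjusted p under 0.05 by edgeR there were 4, nr1d1, nr1d2a, nr1d2b and per3, beside 8.91% of all genes, and DESeq2's Wald test also called 0 of the 7. The KO and HET libraries overlapped for all 7, where 3.92% of all genes did not overlap. With the main axis of variation within groups, described further on, as a covariate, 3 of the 7 were called, beside 2.48% of all genes. The log2 fold change of nr1d1 was then -0.76 with an edgeR adjusted p of 0.0282 (range 0.00974 to 0.653 over its 17 alternatives). That axis was computed from the spread of these same libraries, so fitting it lowers the residual spread by construction. Calls over all genes rose from 43 to 538 with it. Its p-values can be too small, and nothing is read from these maternal-cross calls. In the paternal cross by the labels, 3 of the 7 genes were called, nr1d1, nr1d2a and per1a, all lower in labelled KO, beside 9.14% of all genes called lower and 23.2% called in either direction. The groups did not overlap for 4 of the 7, per3 besides these, beside 11% of all genes. The genes were chosen from that contrast, so these calls are a description of the choice, not a test, and nothing is read from them or from these shares.

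**Figure D2:**
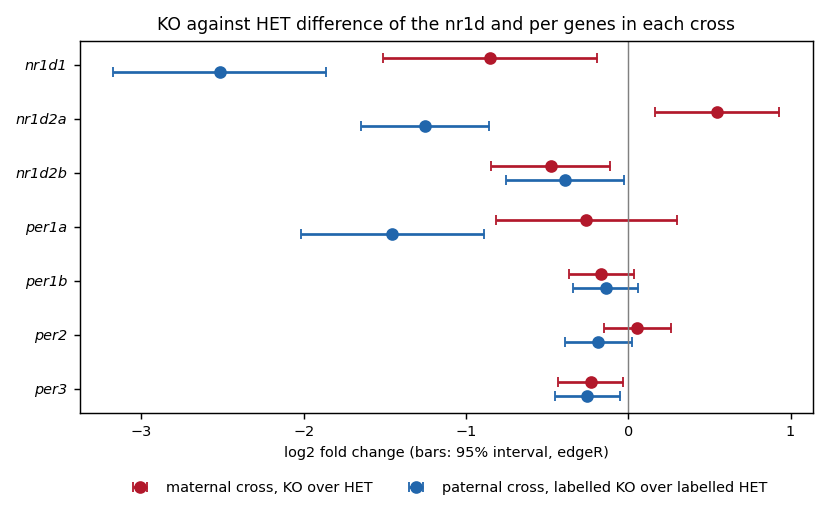
Log2 fold change of the 7 genes (rows), KO over HET in the maternal cross and labelled KO over labelled HET in the paternal cross, with bars for the 95% confidence interval of the edgeR fit. nr1d1 reads -0.85 in the maternal and -2.52 in the paternal cross, and nr1d2a reads 0.55 and -1.25.

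The other clock genes were 47 genes in 7 lists, of which 43 had enough counts to be tested; nr1d4a, RORB, nfil3-4 and fbxw11a had not. In the maternal cross 1 of the 43 rose, nfil3-5, and none fell, beside 0.198% of all genes called, with a median log2 fold change of 0.05. At an unadjusted p under 0.05 by edgeR there were 10 of the 43, beside 8.91% of all genes. DESeq2 called 3 higher and 1 lower, where it called 209 genes in all. In the paternal cross by the labels 7 of the 43 were higher and 10 lower, with a median of -0.12, beside 23.2% of all genes called. That split was 5 higher and 12 lower with DESeq2's size factors, and 8 higher and 5 lower with upper-quartile scaling, so the direction with more calls turned with the scaling. The 17 calls, beside 5034 of all genes, became 5 beside 187 with each library's full score on the main within-group axis as a covariate. They became 9 beside 3442 of all genes with a replicate block. Other settings gave as many or more: 24 beside 8485 with the within-group axis as a covariate and 20 beside 6157 with DESeq2's Wald test. The stricter filter gave 18 beside 4845, and the compared groups alone 18 beside 5525. The 17 calls became 10, 11, 14 and 3 without labelled paternal-cross KO replicate 1, 2, 3 or 4. They became 17, 8, 4 and 7 without labelled paternal-cross HET replicate 1, 2, 3 or 4. These lists were chosen with earlier results of these data known. The calls and adjusted p-values of their genes between the labelled paternal-cross groups, here and below, are therefore a description and not a test. The same holds for those between the crosses, which share these libraries.

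nfil3-5 (ENSDARG00000094965) is 1 of several zebrafish copies of nfil3, which encodes a repressor at D-box elements. It had 30.0, 19.0, 24.9 and 36.3 CPM in maternal-cross KO, against 6.69, 10.7, 14.0 and 7.54 CPM in maternal-cross HET. It had 21.9, 18.4, 20.7 and 25.0 CPM in labelled paternal-cross KO, against 7.22, 4.49, 3.94 and 5.79 CPM in labelled paternal-cross HET. Every maternal-cross KO library lay above every maternal-cross HET library, where 3.92% of all genes did not overlap in either direction. Every labelled paternal-cross KO library lay above every labelled paternal-cross HET library, in a contrast where 23.2% of all genes were called in either direction. The log2 fold change was 1.50 with a standard error of 0.23 in the maternal cross (edgeR adjusted p = 0.00953) and 2.01 with a standard error of 0.24 in the paternal cross by the labels (edgeR adjusted p = 0.00258). The maternal-cross call was lost when the fit held only the 2 groups compared (adjusted p = 0.142; range 1.04e-07 to 0.142 over 17 alternatives).

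rorcb (ENSDARG00000017780) encodes a ROR nuclear receptor, of the family that activates through the ROR element. It had 15.7, 10.7, 13.9 and 21.4 CPM in maternal-cross KO, against 4.77, 5.57, 10.3 and 5.41 CPM in maternal-cross HET. It had 15.1, 12.0, 11.7 and 18.4 CPM in labelled paternal-cross KO, against 4.91, 3.44, 3.17 and 3.90 CPM in labelled paternal-cross HET. Here too KO and HET did not overlap in either cross, although the maternal-cross gap was narrow. In the maternal cross 3.92% of all genes did not overlap in either direction, and in the paternal cross 23.2% of all genes were called in either direction. The log2 fold change was 1.24 with a standard error of 0.25 in the maternal cross, just short of a call (edgeR adjusted p = 0.0515, and called in 7 of 17 alternatives), and 1.89 with a standard error of 0.26 in the paternal cross by the labels (edgeR adjusted p = 0.00337). The other 4 tested genes of its list, RORA, rorab, rorca and nr1d4b, did not pass the test in either cross.

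Among the PAR bZIP factors, which activate at the D-box, dbpa (ENSDARG00000063014) averaged 0.762 ± 0.0930 CPM in maternal-cross KO and 1.84 ± 0.625 CPM in maternal-cross HET (SD, n = 4 each). It averaged 0.881 ± 0.372 CPM in labelled paternal-cross KO and 1.66 ± 0.241 CPM in labelled paternal-cross HET (SD, n = 4 each). KO and HET did not overlap in either cross, at 11 to 63 counts per library. Of all genes, 3.92% did not overlap in the maternal cross in either direction. In the paternal cross 11% did not overlap with labelled KO lower. Its log2 fold change was -1.27 in the maternal cross (standard error 0.30, edgeR adjusted p = 0.107) and -0.91 in the paternal cross by the labels (standard error 0.29, edgeR adjusted p = 0.0361), a call lost in 8 of 17 alternatives. dbpb and tefb were lower in labelled paternal-cross KO, by log2 fold changes of -0.42 and -0.36 (edgeR adjusted p = 0.0178 and 0.0249), calls lost in 2 and 6 of 17 alternatives. Neither was called in the maternal cross, where tefb had 0.38 and dbpb 0.06. hlfa, called in neither cross, went the other way from dbpa. It averaged 10.9 CPM in maternal-cross KO and 6.70 CPM in maternal-cross HET, and 8.08 and 6.97 CPM in labelled paternal-cross KO and HET. Of the 9 tested genes of this list, nfil3 copies included, 7 were above 0 and 2 below in the maternal cross. There 6 had an unadjusted p under 0.05 by edgeR, beside 8.91% of all genes. By the paternal-cross labels 4 were above 0 and 5 below.

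BMAL and CLOCK, the activators, had log2 fold changes of no more than 0.61 in size in either cross. Of 6 bmal and clock genes, none was called in the maternal cross, where 2 had an unadjusted p under 0.05 by edgeR, beside 8.91% of all genes. In the paternal cross by the labels 1 was higher, the CLOCK copy ENSDARG00000011703, with a log2 fold change of 0.61 (edgeR adjusted p = 0.0156, lost in 2 of 17 alternatives); it had 0.44 in the maternal cross (edgeR adjusted p = 0.349). BMAL1 (ENSDARG00000006791) had -0.07 in the maternal cross and -0.30 in the paternal cross by the labels (edgeR adjusted p = 0.915 and 0.0501). The paternal-cross value was just short of a call and was called lower in 8 of 17 alternatives. The other BMAL1 copy, ENSDARG00000035732, had 0.25 and -0.09, and the other CLOCK copy, ENSDARG00000003631, had 0.15 and 0.25, with none of these called. Of 6 cryptochrome genes, which encode partners of the period proteins or their relatives, 2 were lower in the paternal cross by the labels: CRY1 (ENSDARG00000011583), with -0.37, and cry3a, with -0.20 (edgeR adjusted p = 0.0246 and 0.0390). The CRY1 call was lost in 6 of 17 alternatives and that of cry3a in 10. In the paternal cross by the labels 23.2% of all genes were called in either direction and 9.14% were called lower, and nothing is read from the calls in these 2 lists.

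**Figure D3:**
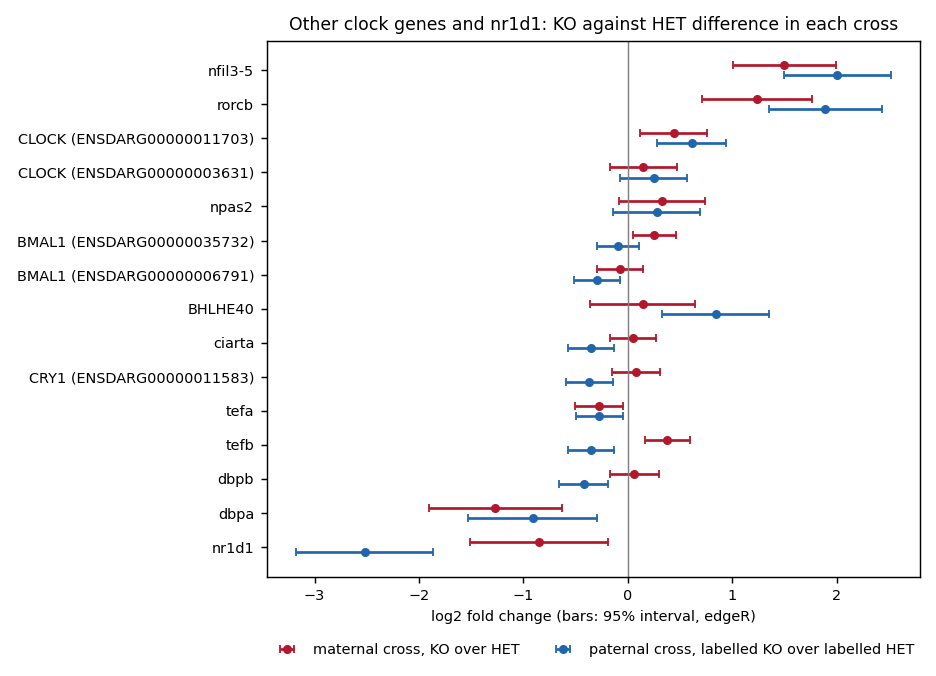
Log2 fold change of nr1d1 and selected other clock genes (rows), KO over HET in the maternal cross and labelled KO over labelled HET in the paternal cross, with bars for the 95% confidence interval of the edgeR fit. nfil3-5 (1.50 and 2.01) and rorcb (1.24 and 1.89) lie far to the right in both crosses.

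The remaining lists held the feedback genes, the enzymes that act on clock proteins and the light-induced repair genes. In the paternal cross by the labels BHLHE40, an E-box repressor, was higher by 0.84 on the log2 scale and ciarta, another repressor of the loop, was lower, with -0.36 (edgeR adjusted p = 0.0239 and 0.0256), calls lost in 5 and 7 of 17 alternatives. Of 7 tested kinases and ligases, csnk1e and fbxl3l were among those higher there, with log2 fold changes of 0.35 and 0.90, and CSNK1D and FBXW11 were lower, with -0.32 and -0.47. Of 17 alternatives, the csnk1e call was lost in 13, fbxl3l in 7, CSNK1D in 3 and FBXW11 in 7. Of 6 light-induced repair genes, cpdp and DDB2 were lower there, with log2 fold changes of -0.33 and -0.38, calls lost in 9 and 3 of 17 alternatives. In the paternal cross by the labels 23.2% of all genes were called in either direction and 9.14% were called lower, and nothing is read from the calls in these lists. None of these genes was called in the maternal cross.

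The counts of nr1d1 and nfil3-5 were set against each other within each library, a quantity chosen after both were seen and given with no test. Dividing nr1d1 by nfil3-5 cancels the library scaling. The ratio lay between 0.0384 and 0.0566 in maternal-cross KO, against 0.178 to 0.288 in maternal-cross HET. It lay between 0.0394 and 0.0622 in labelled paternal-cross KO, against 0.991 to 1.31 in labelled paternal-cross HET. Maternal-cross KO and labelled paternal-cross KO overlapped. Maternal-cross HET and labelled paternal-cross HET stood apart from these and from each other. The means were 0.0477 ± 0.00745 in maternal-cross KO, 0.233 ± 0.0526 in maternal-cross HET, 0.0493 ± 0.00991 in labelled paternal-cross KO and 1.13 ± 0.162 in labelled paternal-cross HET (SD, n = 4 each).

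**Figure D4:**
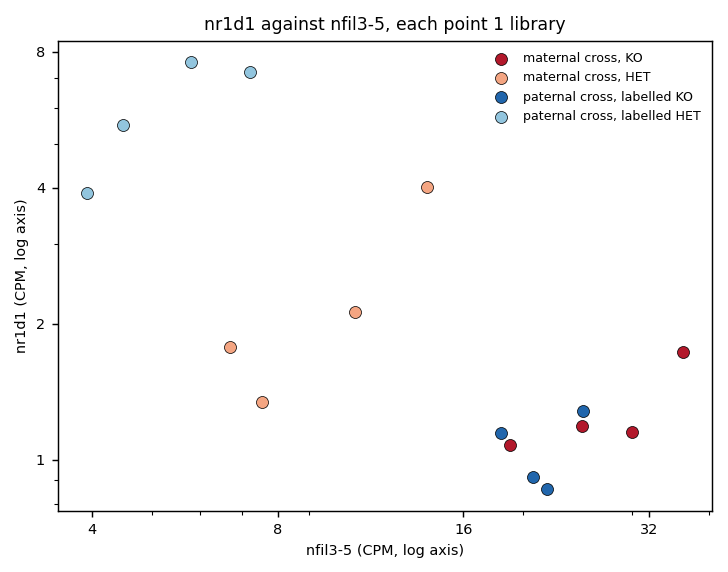
nr1d1 level against nfil3-5 level in CPM, on log axes, with 1 point per library (n = 16). Maternal-cross KO and labelled paternal-cross KO lie together at high nfil3-5 and low nr1d1. Maternal-cross HET lies between, and labelled paternal-cross HET lies at low nfil3-5 and high nr1d1.

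Between the crosses, the values of the 7 genes share libraries with the contrast that chose them and are again a description. Among KO libraries, maternal cross over labelled paternal cross, nr1d2a was the 1 of 7 genes called, beside 1.59% of all genes, with a log2 fold change of 1.47 (standard error 0.19). Its groups did not overlap, as for 4.71% of all genes with a higher maternal-cross group. nr1d1 had 0.29 there (standard error 0.33). Among HET libraries, maternal over labelled paternal cross, nr1d1 was the 1 of 7 called, beside 3.92% of all genes, with -1.37 (standard error 0.29), although maternal-cross HET replicate 3, at 4.03 CPM, reached into the labelled paternal-cross range. That call was lost without maternal-cross HET replicate 2, without labelled paternal-cross HET replicate 2 and without labelled paternal-cross HET replicate 4, with log2 fold changes between -1.42 and -1.25.

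Of the 43 other clock genes tested, tefb and nfil3-6 were higher in maternal-cross KO than in labelled paternal-cross KO, by 0.56 and 1.01 on the log2 scale (edgeR adjusted p = 0.0132 and 0.0459). rorca was higher in maternal-cross HET than in labelled paternal-cross HET, by 0.43 (edgeR adjusted p = 0.0335). Of all genes, 1.59% were called among KO and 3.92% among HET, and nothing is read from these calls. With a replicate block the 43 genes had 1 call among KO and 0 among HET. The compared groups alone gave 2 among KO and 0 among HET, and DESeq2's Wald test gave 4 and 5. With no filter on low counts the 1 call among HET was lower, not higher.

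The difference between the crosses in KO over HET was 1.80 for nr1d2a on the log2 scale (standard error 0.26), the 1 of 7 genes called for it, beside 0.189% of all genes. It was 1.66 for nr1d1 (standard error 0.44) and 1.19 for per1a (standard error 0.37). The difference contains the contrast that chose the genes, so these values too are a description and not a test. Without maternal-cross HET replicate 3, the library with the most nr1d1 in its group, the difference for nr1d1 was 2.07 and was called. All of these differences use the paternal-cross labels as given. With the sign of the paternal-cross contrast turned round, they would be -0.71 for nr1d2a, -3.37 for nr1d1 and -1.71 for per1a, and nr1d2a would have the smallest of the 3.

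Within the groups the 7 genes fell into 2 kinds. The deviations of log2 CPM from the group means of nr1d1, nr1d2a, nr1d2b and per1a moved together, with Pearson's r between 0.73 and 0.95 over their 6 pairs (n = 16 libraries, which share depth and tissue composition). The 12 pairs of these 4 genes with per1b, per2 and per3 had r between -0.24 and 0.45. Every one of the 4 fell along the main axis of variation within groups, which held 31.8% of the within-group variance of all genes: r with the axis score was -0.87 for nr1d1, -0.80 for nr1d2a, -0.93 for nr1d2b and -0.91 for per1a. For per1b, per2 and per3 it was -0.35, 0.12 and 0.26.

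The same axis went with marker genes of other cell types. Over the 16 libraries its score had r = -0.95 with the summed leukocyte markers, -0.89 with the testis somatic markers 0.87 with the oocyte markers and -0.70 with the red blood cell markers, all as deviations from the group means. Likewise nr1d1 had r = 0.80 with leukocyte, 0.75 with testis somatic, 0.75 with red blood cell and -0.73 with oocyte markers. Within groups, then, nr1d1 was high in the libraries with more transcript of the leukocyte, testis somatic (mostly gsdf) and red blood cell lists and less of the oocyte list.

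Between the labelled paternal-cross groups the markers differed as well. The 5 leukocyte markers summed to 264 to 465 CPM in labelled KO and 121 to 206 CPM in labelled HET, with 4 of 5 called higher. The 5 testis somatic markers summed to 293 to 563 CPM in labelled KO and 141 to 230 CPM in labelled HET, with 3 of 5 called higher, and 5 of 6 oocyte markers were called lower. Of the steroid cell markers 2 of 3 were called higher, and of the germ cell markers 2 of 4 were called lower. Of all genes, 23.2% were called there in either direction and 9.14% were called lower. The 3 red blood cell markers overlapped in sum, at 80.3 to 139 CPM in labelled KO and 35.8 to 297 CPM in labelled HET, with 1 of 3 called higher. In the maternal cross the leukocyte sums overlapped, at 187 to 314 CPM in KO and 139 to 380 CPM in HET, the testis somatic sums were 194 to 376 CPM in KO and 170 to 438 CPM in HET, and edgeR called 0 genes of any marker list at an adjusted p under 0.05. At an unadjusted p under 0.05 by edgeR there were 8, beside 8.91% of all genes, among them all 4 liver and both exocrine pancreas markers. Liver and pancreas markers reached higher levels in maternal-cross KO: the 2 exocrine pancreas markers summed to 32.5 to 2657 CPM in KO and 22.8 to 187 CPM in HET, and the 4 liver markers to at most 151 CPM in KO and at most 14.8 CPM in HET. Among them only fga, a fibrinogen gene of liver, did not overlap between KO and HET (log2 fold change 3.44, edgeR unadjusted p = 0.000515, adjusted p = 0.104). Its gap was narrow, and fabp10a, apoa2, tfa, prss1 and ela2 overlapped. Of all genes, 3.92% did not overlap there in either direction. The fga value rests largely on 1 library: fga had 0.912 to 23.2 CPM in maternal-cross KO, with a mean of 7.6 CPM. The pancreas gene prss1 was called higher in maternal-cross KO than in labelled paternal-cross KO (log2 fold change 4.85, edgeR adjusted p = 0.0497). That value rests largely on 1 library: prss1 had 22.9 to 1738 CPM in maternal-cross KO, with a mean of 541 CPM. It had 5.94 to 39.9 CPM in labelled paternal-cross KO, so the groups overlapped.

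With the within-group axis as a covariate, the log2 fold change of nr1d1 by the paternal-cross labels was -2.50, and over 17 alternatives it ran from -3.25 to -2.39. In the same alternatives nr1d2a ran from -1.66 to -1.15 and per1a from -2.13 to -1.30. The axis score is centred within each group, so the covariate behind the -2.50 could not remove a composition difference between groups. That value is no check on composition. The part of cell type composition in the levels of the 7 genes was not tested.

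**Figure D5:**
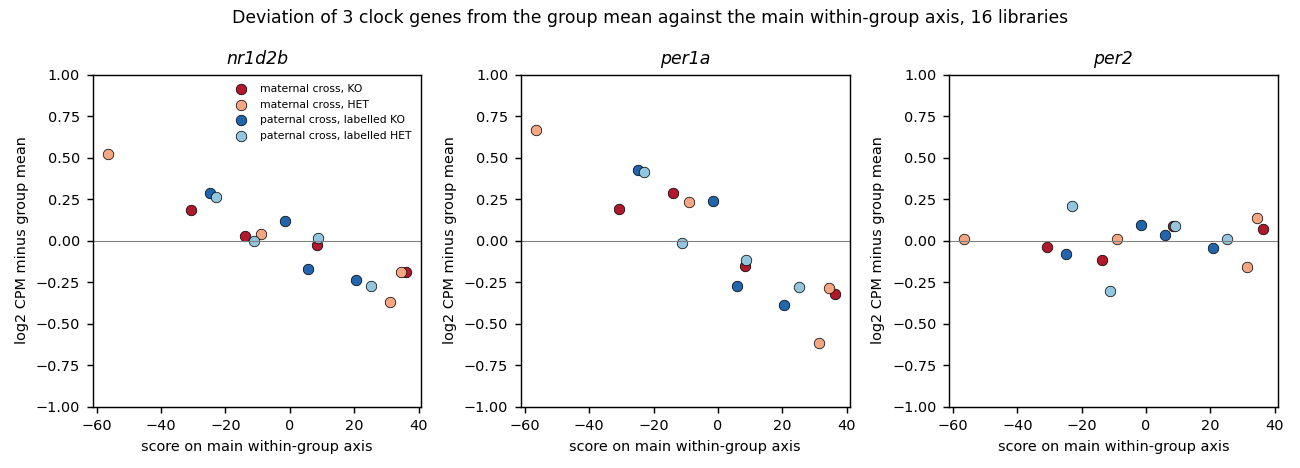
Deviation of log2 CPM from the group mean (y axis) against the score on the main axis of variation within groups (x axis, no unit) for nr1d2b, per1a and per2, with 1 point per library. nr1d2b and per1a fall along the axis (r = -0.93 and -0.91), and per2 shows little slope (r = 0.12).

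nfil3-5 and rorcb, opposite to nr1d1 between groups, moved with it within groups: r of the within-group deviations with nr1d1 was 0.81 for nfil3-5 and 0.79 for rorcb. Across the 16 libraries without removing group means, r with nr1d1 was -0.73 for nfil3-5 and -0.71 for rorcb, ranks 21649 and 21631 of 21676 genes. These values describe 16 libraries in 4 groups that share composition and depth. With the within-group axis score, r of the deviations was -0.95 for nfil3-5 and -0.94 for rorcb, beside -0.95 for the summed leukocyte markers. Like that sum, both genes were higher in labelled paternal-cross KO than in labelled paternal-cross HET. The part of composition in their levels was not tested.

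Ranked by Pearson's r of log2 CPM with nr1d1 over the same libraries, the 10 most alike genes were si:dkey-18a10.3 (r = 0.89), mtif3 (0.81), GOLT1B (0.81), si:dkey-23i12.5 (0.79), ENSDARG00000039665 (0.79), PDF (0.78), SLC25A26 (0.78), cyp46a1.2 (0.78), pdcd4a (0.78) and si:dkey-239h2.3 (0.77). The first of them, si:dkey-18a10.3, lay near the floor, with means of 0.120 CPM in maternal-cross KO and 0.261 CPM in maternal-cross HET. It averaged 0.0706 CPM in labelled paternal-cross KO and 0.498 CPM in labelled paternal-cross HET. It may have passed the filter on low counts only through labelled paternal-cross HET, where nr1d1 was also highest. Nothing is read from its rank or its r. None of the 10 was in a clock list. The first clock genes were dbpa at rank 14 (r = 0.76), tefa at rank 17 and dbpb at rank 18 (r = 0.75 each). Of the 10 genes, si:dkey-18a10.3 and cyp46a1.2 also followed nr1d1 within groups (r = 0.71 and 0.68), while mtif3 and PDF did not (r = -0.08 and -0.20).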

How the data were processed

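Whole-number counts per gene were deposited by the authors for 16 libraries. The submitters' processing notes name STAR 2.4.1d, featureCounts 1.4.6, DESeq2 and the build danRer10, with no role given; the strand setting is not given in the sources used here. The kit was stranded and poly(A)-selected, per the labels, with 84-cycle single reads. The 7 genes and all gene lists were chosen with earlier results of these data known. Symbols came from a reference table that names 26121 of the 31953 identifiers, often by the human symbol in capitals.

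Genes were filtered by filterByExpr by group (minimum count 10), leaving 21683, scaled by TMM and fitted with edgeR 4.0.16 (R 4.3.3) in 1 quasi-likelihood model with a coefficient per group over all 16 libraries. The p-values were Benjamini-Hochberg adjusted over the 21683 genes, and a call was an adjusted p under 0.05. Standard errors were derived from the fold change and its F value. CPM used TMM library sizes, and log2 CPM a prior count of 2. By rule, the genes named were the 7 genes, other clock genes called in a KO over HET comparison, the bmal1 and clock copies, and the 10 genes most alike to nr1d1; other names, and the ratio of nr1d1 to nfil3-5, were added after their values were seen. A gene that the rule names is not reported here. The fit was tested on simulated data. Alternatives were other scalings and filters, a replicate block, an axis covariate, the compared groups alone, DESeq2 1.42.0 and each library left out. Totals of 19881375 to 30128055 counts per library limit nr1d1 most among the 7 genes, at 22 to 218 counts.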

Additional observations from a re-analysis of the deposited data

Results flagged for a closer look

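The difference between the crosses in KO over HET for nr1d2a, 1.80 on the log2 scale, was marked because the edgeR interaction term passed its threshold. The KO over HET log2 fold change was 0.55 in the maternal cross and -1.25 in the paternal cross by the labels. nr1d2a belongs to the genes chosen with the paternal-cross values known, and MIR214 counts went against those labels. The sign of the paternal-cross contrast, and so the size of this difference, depends on those labels: with that sign turned round it would be -0.71. No sample stood apart from its group by Dixon's test in the 28 sets of 4 values of the 7 genes, where chance marks about 1 in 20.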

How the results depend on the processing

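Among 644 values of the 7 genes under alternatives, 615 kept their side of the threshold and 24 gained a call. A call was lost in 5 (all nr1d1 between the HET groups) and reversed in 0. Among the 615, 41 uncalled values changed sign. Counts follow in the order maternal KO over HET, labelled paternal KO over HET, maternal over paternal cross among KO, the same among HET, and the difference between crosses, where the full data gave 43, 5034, 344, 851 and 41 genes, and 0, 3, 1, 1 and 1 of the 7. With a covariate for the within-group axis they were 538, 8485, 1695, 4618 and 2693 genes, and 3, 5, 2, 3 and 3 of the 7. That covariate takes up residual spread by construction, so nothing is read from its higher counts. With each library's full score on that axis, an alternative chosen after seeing the data, they were 289, 187, 1719, 266 and 256 genes, and 2, 4, 2, 3 and 3 of the 7. DESeq2's Wald test gave 209 genes in the maternal cross, 837 among KO, 2055 among HET and 637 for the difference, the last with 3 of the 7. The groups compared alone gave 4 genes in the maternal cross, and 193 genes among HET with 0 of the 7. The difference gave 19 genes with upper-quartile scaling and 70 with no filter. The correlation of deviations of same-numbered libraries averaged -0.247 in the maternal and 0.0345 in the paternal cross, where it reached 0.246. It averaged 0.0928 among KO, where it reached 0.301, and -0.156 among HET. With 4 pairs in each comparison these values show no clear pairing by replicate number but cannot exclude it. A replicate block gave 21 genes in the maternal cross, 134 among KO, 345 among HET with 0 of the 7, and 13 for the difference. Leaving out 1 library at a time gave 19 to 131, 1026 to 5980, 109 to 273, 146 to 1991 and 14 to 181 genes, and 0, 3 to 4, 1, 0 to 1 and 1 to 2 of the 7. The cause of these shifts was not tested.

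Depth limits nr1d1 and dbpa, with 11 to 63 counts per library for dbpa. The paternal-cross labels, the hour of collection and the origin of the pools limit all comparisons.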
